A study of Homo sapiens with 12 samples.

Results

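The 54 genes described here encode lysosomal proteins and subunits of the vacuolar H+-ATPase (V-ATPase), and were chosen as a list by gene symbol, among 58288 gene IDs in the count table. They comprise 7 lysosomal membrane proteins, 9 proteases, 9 sugar-cleaving hydrolases, 5 sulfatases, 7 lipid and phosphate hydrolases or lipid binding proteins, 7 subunits of the membrane sector (V0) and 8 of the cytosolic sector (V1) of the V-ATPase, and 2 V-ATPase accessory proteins. Of the 54, 50 had enough counts to be tested among 13959 genes.

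RNA was sequenced from HK2, a human cell line derived from the proximal tubule of the kidney, whose cells carried either a nontarget short hairpin RNA (shControl in the labels, genotype WT) or an shRNA against FLCN (genotype FLCN knockdown). FLCN encodes folliculin, the protein lost in Birt-Hogg-Dubé syndrome. Cells of each kind were harvested at <30 passages of growth (short-term) or >120 passages (long-term), which gave 4 groups of 3 libraries. These limits are those of the labels, and the study's methods give a lower limit for long-term, counted from clonal selection. All cells thus carried an shRNA and were grown in the same medium. The study describes its knockdown cells as selected clones, but which clone each library came from was not given in the sources used here. An effect of the knockdown and a property of the clone that was grown therefore cannot be told apart. The labels call the 3 libraries of a group biological replicates without saying whether they came from separate cultures, so the p-values measure the spread between these libraries.

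Library totals ran from 5825779 to 8991051 counts. FLCN itself stood at 15.3 ± 2.25 CPM (a gene's counts scaled to a common library total) in short-term nontarget cells and 6.06 ± 0.469 in short-term knockdown cells (SD, n = 3 each), a log2 fold change of −1.33 with an SE of 0.18 (adjusted p = 1.12e-04 in edgeR). Further fold changes are on the log2 scale and are given ± SE. In long-term cells it stood at 11.3 ± 1.23 and 6.99 ± 0.868 CPM (−0.70 ± 0.18, adjusted p = 0.00611). Of 9 proximal tubule markers, GGT1, MME and SLC5A2 had enough counts to be tested, with group means of 36.3 to 65.5, 38.1 to 85.8 and 10.0 to 14.2 CPM, while LRP2 and HNF4A had no counts and the other 4 had group means below 0.5 CPM. Of 8 renal epithelial markers, PAX8, KRT8, KRT18, KRT19, EPCAM and CDH6 were tested, whereas CDH1 and PAX2 had group means of at most 0.739 and 0.830 CPM. KRT19 had means of 32.8 and 32.6 CPM in short-term nontarget and knockdown cells and 5.07 and 4.19 in long-term ones. Of 7 fibroblast markers, COL1A1 (18.2 to 28.2 CPM), LUM (0.960 to 23.5) and PDGFRB (0.658 to 7.41) were tested. The macrophage markers PTPRC, AIF1 and TYROBP had no counts.

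Lysosomes break down proteins, glycans and lipids with hydrolases that work best at acid pH, and the V-ATPase supplies that acid by pumping protons into the lumen: V1 hydrolyses ATP, and V0 carries the protons across the membrane. Many lysosomal and V-ATPase genes carry, near their start sites, an E-box motif that is read by the MiT/TFE transcription factors (TFEB, TFE3 and MITF). FLCN acts on the lysosomal surface as a regulator of the Rag GTPases, through which mTORC1 keeps TFEB and TFE3 in the cytoplasm. Proximal tubule cells are rich in lysosomes because they take up and degrade filtered protein.

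The core of that motif, CACGTG, and its extended palindrome, TCACGTGA, were searched in the promoters that RefSeq gives for GRCh38.p14, from 250 bases before to 50 bases after the start of the gene. Both motifs read the same on both strands, and every extended match contains a core match. A promoter was found for 38 of the 54 genes. The core occurred in 13 of these 38 (34.2%) and in 7.44% of all 27305 promoters, and the extended palindrome in 8 of 38 (21.1%) and in 1.04% of all. The 8 were LAMP1, MCOLN1, CLN3, CTSA, GAA, GALNS, ATP6V0D1 and ATP6V1G1. The 100 bases before the start are shown, 5′ to 3′ on the strand of the gene, for 6 of them. These 6 hold a palindrome (in capitals) wholly within that stretch, and their transcripts did not all move alike, as described below.
GAA, chr17:80101481-80101580, plus strand: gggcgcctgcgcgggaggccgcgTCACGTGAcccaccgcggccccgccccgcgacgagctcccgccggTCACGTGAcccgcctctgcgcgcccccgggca
CTSA, chr20:45891235-45891334, plus strand: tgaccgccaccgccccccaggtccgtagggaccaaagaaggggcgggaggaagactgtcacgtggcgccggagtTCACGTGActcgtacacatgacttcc
ATP6V1G1, chr9:114587669-114587768, plus strand: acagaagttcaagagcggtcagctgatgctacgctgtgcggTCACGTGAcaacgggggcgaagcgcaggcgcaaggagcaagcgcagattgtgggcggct
ATP6V0D1, chr16:67481158-67481257, minus strand: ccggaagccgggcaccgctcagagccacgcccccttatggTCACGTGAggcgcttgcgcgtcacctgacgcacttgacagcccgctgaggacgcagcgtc
LAMP1, chr13:113297139-113297238, plus strand: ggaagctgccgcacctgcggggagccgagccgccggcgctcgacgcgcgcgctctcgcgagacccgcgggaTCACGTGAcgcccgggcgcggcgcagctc
MCOLN1, chr19:7522524-7522623, plus strand: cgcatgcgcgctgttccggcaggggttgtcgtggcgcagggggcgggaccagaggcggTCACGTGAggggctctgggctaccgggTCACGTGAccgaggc
GAA and MCOLN1 each held 2 copies in this stretch, and CTSA held a second core that is not part of a palindrome. The promoter table gave none for HEXA, ATP6V1B2, ATP6V1A, PSAP, ARSA, CTSK, ATP6V1H, ASAH1, CTSS, SGSH, NAGLU, ATP6V1C1, LAMP2, ATP6V0D2, ATP6V0E1 and CTSB.

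Per kilobase of exon, the level of PSAP, the precursor of the saposins that help enzymes reach sphingolipids, was the highest at 543 CPM averaged over the 12 libraries. The carboxypeptidase CTSZ followed with 329 CPM per kilobase and the tetraspanin CD63 with 304. Among V-ATPase genes of the list, the V0 subunit ATP6V0E1 led with 134 CPM per kilobase, and the V1 subunits ATP6V1G1 and ATP6V1F had 93.9 and 93.4. The 2 isoforms of the a subunit of V0 were lowest of those tested, with 2.58 for ATP6V0A2 and 1.56 for ATP6V0A1. The divisor is the length of all annotated exons, 10955 bases for ATP6V0A1 and 1623 for ATP6V0E1. Without it, these 2 genes had 17.1 and 218 CPM. Thus transcripts of V-ATPase subunits and their isoforms spanned a wide range.

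The 4 genes that were not tested were CTSK and ATP6V0D2, a protease and a V0 subunit best known from osteoclasts, CLN3, a membrane protein, and ATP6V0C, the proton-carrying ring subunit of V0. CTSK did not exceed 0.293 CPM in any library, and ATP6V0D2 had counts in 1 long-term nontarget library only. For ATP6V0C, 72.1% of exon bases are shared with AC093525.1 and AC093525.2, both of which had no counts in any library, and for CLN3 30.9% are shared with AC138894.1 and APOBR. ATP6V0C had no counts in short-term nontarget cells and at most 0.509 CPM elsewhere, and CLN3 at most 1.06. How reads from shared exons were assigned was not given in the sources used here, so these values were not read as the level of either gene.

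The comparison of knockdown with nontarget cells at <30 passages asked what reduced FLCN did early. Short-term, 3 of the 50 genes were higher and 4 were lower in knockdown cells at an edgeR adjusted p below 0.05, which is 6% higher against 5.62% of all genes tested and 8% lower against 4.71%. None changed by 2.5-fold, the limit the study applied, against 1.79% of all genes. The median log2 fold change was −0.05 over the 50 genes and 0.00 over all genes tested once rounded, with a range of −1.06 to 0.67. The share called higher was close to that of all genes. In bulk RNA, fewer cells of a type and less RNA per cell cannot be told apart, here and below. No V1 subunit, membrane protein, sulfatase or accessory protein passed the test in edgeR or DESeq2. At an unadjusted p below 0.05, edgeR gave 0 V1 subunits, 0 sulfatases, 1 membrane protein higher (LAMP1) and 1 lower (SCARB2), and 1 accessory protein lower (ATP6AP1), where 12.3% of all genes were higher and 10.8% lower at that limit.

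The comparison at >120 passages asked the same after long culture of cells with reduced FLCN. Long-term, 6 of the 50 were higher, 12% against 13.7% of all genes, and 19 were lower, 38% against 15.8%. Only CTSS passed 2.5-fold, 2% against 6.61%. The median was −0.21 for the 50 genes and 0.00 for all genes. The lower calls fell on every role, with 2 membrane proteins, 4 proteases, 2 sugar-cleaving hydrolases, 2 sulfatases, 1 lipid hydrolase, 2 V0 subunits, 5 V1 subunits and 1 accessory protein. The higher calls were CTSA, GAA, HEXA, GUSB, ATP6V0E1 and ATP6AP2.

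Cell type markers also moved between the long-term groups. MME (1.17), GGT1 (0.85), CDH6 (2.73) and LUM (3.69) were higher in knockdown cells, and PDGFRB (−3.56), PAX8 (−0.61), EPCAM (−0.59) and ACP5 (−0.94) were lower, all called in edgeR. The summed level of the 9 proximal tubule markers was 78.0 to 97.7 CPM in long-term nontarget and 162 to 175 in long-term knockdown libraries. That of the 8 renal epithelial markers was 3256 to 3689 and 4061 to 4626. CDH6 carried this rise, with means of 244 and 1618 CPM. All other markers of that list had lower means with knockdown, among them KRT8 (1997 and 1726 CPM) and KRT18 (876 and 753). The sum of the 7 fibroblast markers was 24.6 to 31.8 and 27.4 to 36.8, in which LUM rose and PDGFRB fell. That of the 7 macrophage and osteoclast markers was 22.2 to 25.7 and 10.3 to 14.8, nearly all of it ACP5 (means of 23.1 and 12.2 CPM). In short-term cells MME, GGT1, PAX8, CDH6 and ACP5 were called, all higher with knockdown. The part of these markers' changes in the results on lysosomal genes was not tested.

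**Figure D1:**
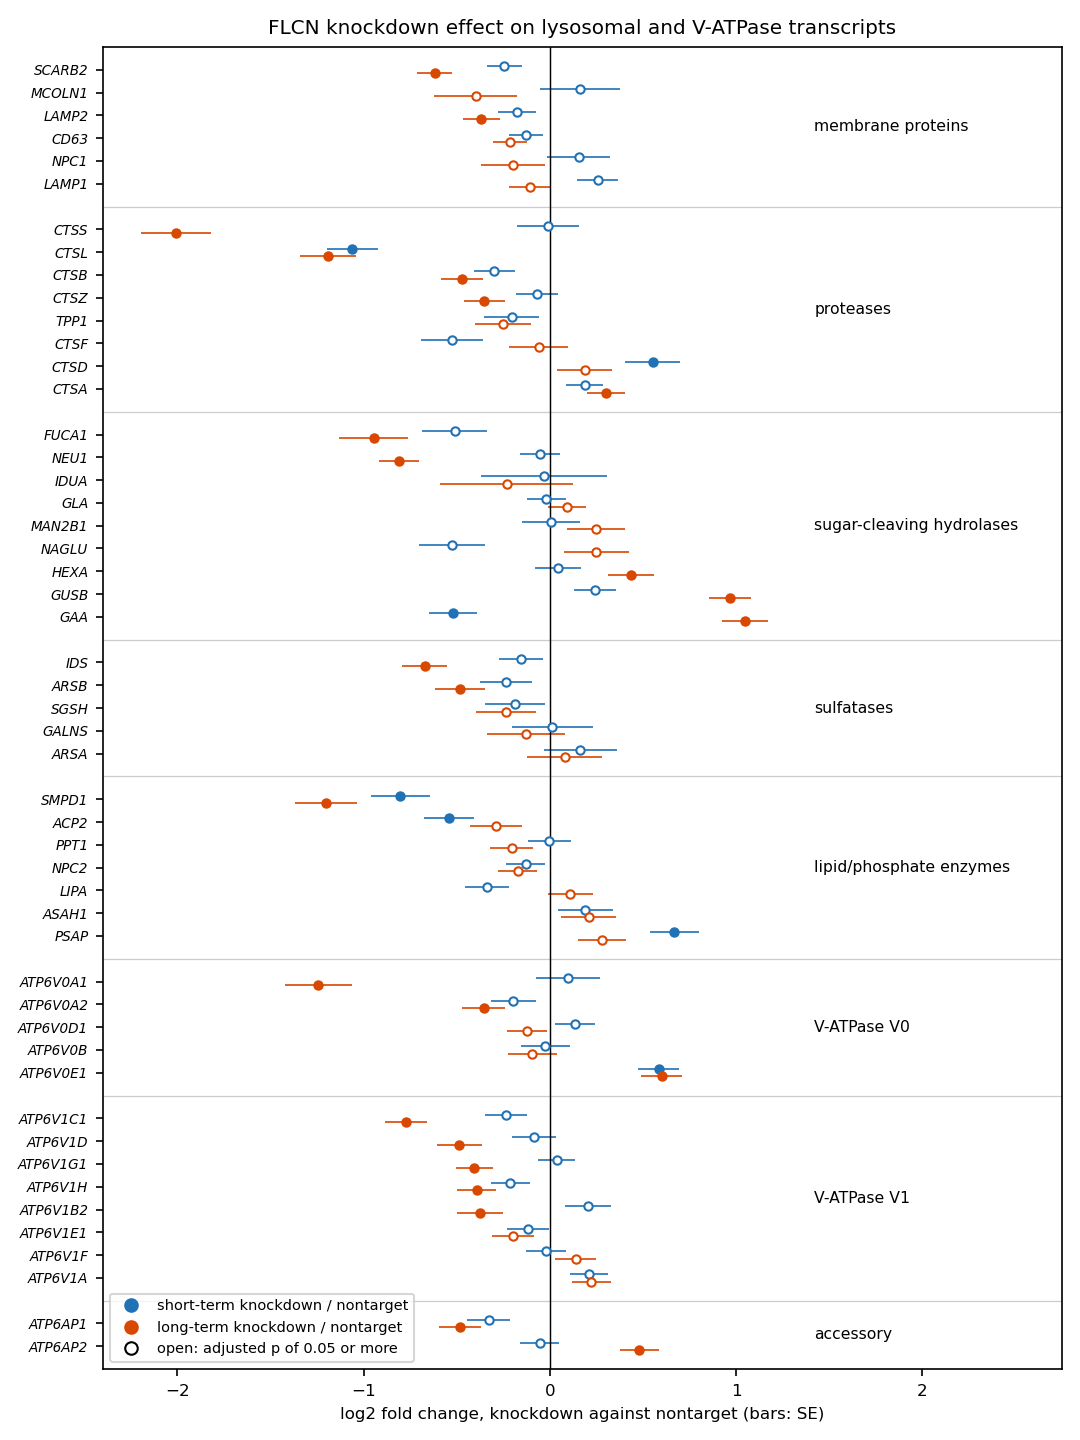
Log2 fold change of FLCN knockdown against nontarget cells (x axis) for the 50 tested genes (rows, grouped by role), with bars for the SE. Blue points are short-term and orange points long-term cells, and filled points have an adjusted p below 0.05. Short-term fills are few and lie on both sides of 0, while 19 of the 25 long-term fills lie left of 0, CTSS farthest at −2.01.

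Among the 8 tested proteases of the list, most of them cathepsins, which cleave proteins in the lysosome, CTSS and CTSL had the largest long-term falls. CTSL, a cysteine protease (chr9:87725519-87731393 in GENCODE release 29 on GRCh38, plus strand), had 81.1, 89.8 and 82.0 CPM in short-term nontarget libraries and 39.9, 48.8 and 32.0 in short-term knockdown libraries. In long-term cells it had 40.2, 44.3 and 34.5 CPM without and 18.5, 16.9 and 16.5 with knockdown. The groups did not overlap within either time, and long-term nontarget cells lay at the level of short-term knockdown cells. The log2 fold change was −1.06 ± 0.14 short-term (the level fell by 52.1%, adjusted p = 7.82e-05) and −1.19 ± 0.15 long-term (the level fell by 56.3%, adjusted p = 9.80e-06), and the difference between the 2 effects was −0.13 ± 0.20 (adjusted p = 0.74). The annotation holds 6 CTSL pseudogenes, so the assignment of its reads is less certain than for single-copy genes.

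CTSS, a cysteine protease active also near neutral pH (chr1:150730196-150765957, minus strand), behaved differently. It had 32.4, 36.0 and 32.2 CPM in short-term nontarget, 35.7, 40.5 and 23.2 in short-term knockdown and 33.2, 40.6 and 37.1 in long-term nontarget libraries. Long-term knockdown libraries had 9.59, 10.1 and 7.63 CPM. Only these 3 libraries stood apart, below every other library. The fold change was −2.01 ± 0.19 long-term (the level fell by 75.1%, adjusted p = 3.32e-07) and −0.01 ± 0.17 short-term (adjusted p = 0.983).

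The other proteases moved less. CTSB, a cysteine protease on chromosome 8, had 289, 346 and 344 CPM in long-term nontarget and 223, 232 and 251 in long-term knockdown libraries (−0.47 ± 0.11, adjusted p = 0.00384), with 287, 287 and 260.3 against 225, 261 and 193 CPM short-term (−0.30 ± 0.11, adjusted p = 0.111). CTSZ had 525, 642 and 639 CPM without and 418, 467 and 531 with long-term knockdown (−0.35 ± 0.11, adjusted p = 0.0239). The long-term CTSZ groups overlapped by 1 library each, and the call was lost when long-term knockdown replicate 1 (adjusted p = 0.124), long-term knockdown replicate 2 (0.0597), long-term nontarget replicate 2 (0.0866) or long-term nontarget replicate 3 (0.0737) was left out.

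CTSA, the carboxypeptidase that protects neuraminidase, rose slightly from 226, 255 and 275 to 306, 308 and 318 CPM long-term (0.30 ± 0.10, adjusted p = 0.0323). The CTSA call was lost on leaving out any 1 of 5 of the 6 long-term libraries (adjusted p = 0.0637 to 0.126; long-term nontarget replicate 3 was the exception) and when only the long-term groups were fitted (0.0551). Of its exon bases 28.5% are shared with genes on the opposite strand, among them AL008726.1, which was also higher (0.39, adjusted p = 0.0342). CTSD, the main aspartic protease, had 203, 218 and 177 CPM in short-term nontarget and 275, 282 and 320.1 in short-term knockdown libraries (0.55 ± 0.15, adjusted p = 0.0222), and 142, 168 and 219 against 172, 194 and 237 long-term (0.19 ± 0.15, adjusted p = 0.378). The short-term CTSD groups did not overlap, but the call was lost without short-term nontarget replicate 1 (adjusted p = 0.069) or replicate 3 (0.108) or without short-term knockdown replicate 3 (0.0607). Of the CTSD exon bases, 52.7% are shared with AC068580.3 on the opposite strand and AC068580.4 on the same strand. AC068580.3 had means of 28.9 and 34.9 CPM short-term (0.27, adjusted p = 0.271), and AC068580.4 had at most 0.388 CPM in any library. As the strand setting was not given in the sources used here, reads of these genes cannot be told apart from those of CTSD. CTSF and TPP1 passed in edgeR in neither knockdown comparison, but DESeq2 called CTSF lower short-term (−0.52, adjusted p = 0.04, against 0.0547 in edgeR).

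**Figure D2:**
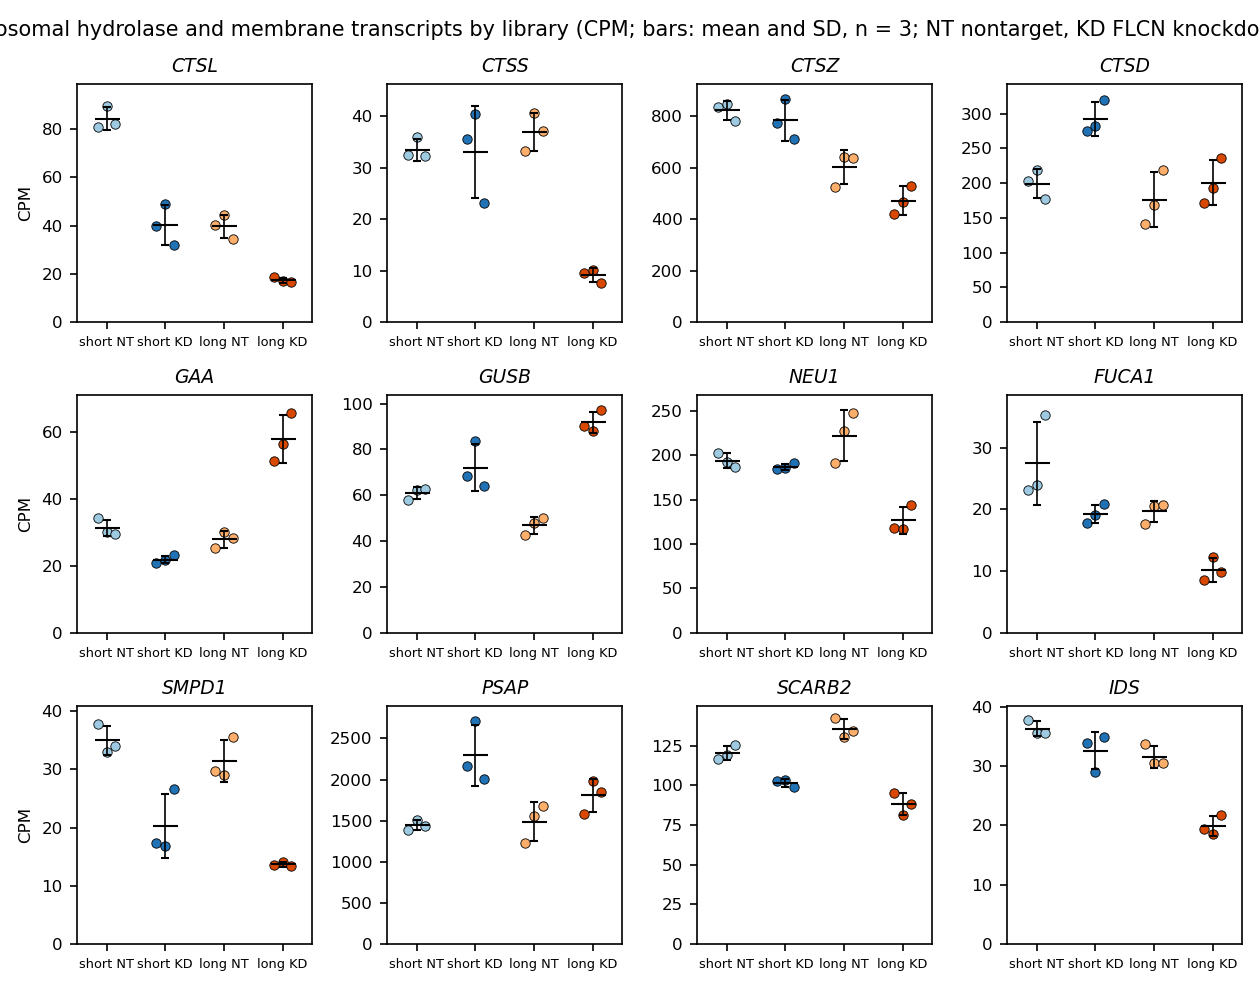
CPM (y axis, from 0) of 12 lysosomal transcripts in each library of short-term nontarget, short-term knockdown, long-term nontarget and long-term knockdown cells (x axis); points are libraries, bars the mean and SD (n = 3). CTSS drops in long-term knockdown libraries alone, CTSL is lower with knockdown at both times, and GAA is lowest in short-term and highest in long-term knockdown cells.

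Of the 9 sugar-cleaving hydrolases, 3 were higher long-term, 33.3% against 13.7% of all genes, and 2 were lower, 22.2% against 15.8%, with a median log2 fold change of 0.25. GAA, the acid alpha-glucosidase that degrades glycogen (chr17:80101556-80119879, plus strand), had 34.2, 30.2 and 29.5 CPM in short-term nontarget and 20.9, 21.6 and 23.2 in short-term knockdown libraries. Long-term it had 25.2, 30.2 and 28.3 CPM without and 51.4, 56.3 and 65.5 with knockdown. The direction turned with time, since the short-term knockdown libraries lay below every nontarget library and the long-term ones above. The fold change was −0.52 ± 0.13 short-term (adjusted p = 0.0149) and 1.05 ± 0.12 long-term (adjusted p = 5.23e-06), and the difference was 1.57 ± 0.18 (adjusted p = 1.05e-05). The short-term call was lost without short-term nontarget replicate 1 (adjusted p = 0.0875) or short-term knockdown replicate 1 (0.067), whereas the long-term call held in every alternative fit. This gene holds the pair of palindromes shown above.

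GUSB, beta-glucuronidase (chr7:65960684-65982314, minus strand), had 42.9, 47.9 and 50.2 CPM in long-term nontarget and 90.3, 88.2 and 97.0 in long-term knockdown libraries. The short-term libraries lay between, at 58.0, 62.4 and 62.5 CPM without and 68.6, 83.5 and 63.9 with knockdown. The long-term rise was 0.97 ± 0.11 (95.3%, adjusted p = 4.88e-06) and the short-term difference 0.24 ± 0.11 (adjusted p = 0.211). The annotation holds 12 GUSB pseudogenes, so its read assignment is uncertain. HEXA, the alpha subunit of beta-hexosaminidase, had 34.2, 40.3 and 40.1 CPM without and 49.8, 55.3 and 49.5 with long-term knockdown (0.43 ± 0.12, adjusted p = 0.013), and the call was lost without long-term nontarget replicate 1 (0.0562) or long-term knockdown replicate 2 (0.0668). HEXA shares 16.3% of its exon bases with other genes, among them AC009690.2 on the opposite strand, which had means of 16.0 and 21.6 CPM (0.43, adjusted p = 0.119), and reads of both cannot be told apart without the strand setting.

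NEU1, the lysosomal sialidase (chr6:31857659-31862906, minus strand), had 203, 192 and 186 CPM in short-term nontarget and 184, 186 and 191 in short-term knockdown libraries, which overlapped. In long-term cells it had 191, 227 and 247 CPM without and 118, 117 and 144 with knockdown. The long-term knockdown libraries were below all others, and the fold change was −0.81 ± 0.11 (the level fell by 43.0%, adjusted p = 2.18e-05). FUCA1, which removes fucose, had 17.7, 20.6 and 20.7 CPM without and 8.55, 12.3 and 9.84 with long-term knockdown (−0.95 ± 0.19, adjusted p = 8.50e-04). Its short-term values were 23.1, 24.0 and 35.2 against 17.8, 19.0 and 20.9 CPM, with no overlap but an adjusted p of 0.0705 (−0.51 ± 0.17). GLA, NAGLU, IDUA and MAN2B1 passed in neither comparison, with long-term log2 fold changes of −0.23 to 0.25.

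The sulfatases remove sulfate from glycosaminoglycans and sulfolipids, and 2 of the 5 were lower long-term, 40% against 15.8% of all genes. IDS, iduronate 2-sulfatase (chrX:149476990-149521096, minus strand), had 33.8, 30.5 and 30.5 CPM without and 19.4, 18.5 and 21.7 with long-term knockdown, the lowest 3 of the 12 libraries (−0.67 ± 0.12, adjusted p = 4.27e-04). IDS shares 17.4% of its exon bases with AC244197.2 and AC244197.3. ARSB had 36.2, 34.4 and 44.4 CPM against 29.2, 26.7 and 26.3 (−0.48 ± 0.14, adjusted p = 0.0122), a call that was lost without long-term nontarget replicate 3 (0.0657). SGSH, ARSA and GALNS had long-term log2 fold changes of −0.24 to 0.08, none of which passed.

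Of the lipid and phosphate hydrolases and lipid binding proteins, SMPD1, the acid sphingomyelinase (chr11:6390431-6394998, plus strand), was lower at both times. It had 37.9, 33.0 and 34.1 CPM in short-term nontarget and 17.3, 16.8 and 26.5 in short-term knockdown libraries (−0.80 ± 0.16, adjusted p = 0.00327). Long-term it had 29.7, 28.96 and 35.6 CPM without and 13.5, 14.1 and 13.4 with knockdown (−1.20 ± 0.17, adjusted p = 2.76e-05). The groups did not overlap at either time, and the difference between the effects was −0.40 ± 0.23 (adjusted p = 0.294). ACP2, a lysosomal acid phosphatase, had 30.8, 31.0 and 29.7 CPM without and 21.0, 18.6 and 23.4 with short-term knockdown (−0.54 ± 0.14, adjusted p = 0.015). That call was lost without replicate 1 or 2 of either short-term group (adjusted p = 0.0522 to 0.0749). Long-term values of ACP2 were 19.3, 22.8 and 25.2 against 17.4, 17.8 and 20.0 CPM (adjusted p = 0.133).

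PSAP (chr10:71816298-71851375, minus strand) had 1387, 1512 and 1432 CPM in short-term nontarget and 2167, 2711 and 2006 in short-term knockdown libraries (0.67 ± 0.13, a rise of 58.9%, adjusted p = 0.00287). Its long-term values, 1226, 1555 and 1683 against 1584, 1986 and 1852 CPM, overlapped (0.28 ± 0.13, adjusted p = 0.122). The summed level of this role, of which PSAP is the most abundant transcript, was 2072, 2236 and 2106 CPM in short-term nontarget and 2840.0, 3393 and 2553 in short-term knockdown libraries. PPT1, LIPA, ASAH1 and NPC2 passed in neither knockdown comparison.

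Of 6 membrane proteins tested, 2 were lower in long-term knockdown cells, 33.3% against 15.8% of all genes, and 0 were higher, against 13.7%. SCARB2, the receptor that carries beta-glucocerebrosidase to the lysosome (chr4:76158733-76234536, minus strand), had 142, 130.4 and 134 CPM without and 95.2, 81.3 and 88.4 with knockdown (−0.62 ± 0.09, adjusted p = 6.42e-05). In short-term cells SCARB2 had 117, 119 and 125 against 103, 103 and 98.9 CPM, without overlap and with an adjusted p of 0.112. LAMP2, an abundant glycoprotein of the lysosomal membrane, had 381, 306 and 317 CPM without and 282, 256 and 239 with long-term knockdown (−0.37 ± 0.10, adjusted p = 0.00962), and missed the threshold without long-term nontarget replicate 1 (0.0541). LAMP1, CD63, NPC1 and the calcium channel MCOLN1 had long-term log2 fold changes of −0.40 to −0.11 that did not pass. The summed level of the 7 membrane proteins was 1873, 1894 and 1977 CPM in long-term nontarget and 1637, 1587 and 1653 in long-term knockdown libraries, lower in all 3 than in any other library.

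V1, the sector that hydrolyses ATP, had the largest share of lower calls among the roles with more than 2 members: 5 of 8 subunits, 62.5%, were lower in long-term knockdown cells, against 15.8% of all genes tested. None was higher in edgeR or DESeq2, and 1, ATP6V1A, had an unadjusted p below 0.05 in that direction, as did 18.5% of all genes. ATP6V1C1, subunit C, which joins V1 to V0 (chr8:103021063-103073051, plus strand), had 163, 168 and 161 CPM in short-term nontarget and 145, 151 and 121 in short-term knockdown libraries. Long-term it had 193, 164 and 154 CPM without and 104, 106 and 88.2 with knockdown (−0.77 ± 0.11, the level fell by 41.5%, adjusted p = 5.08e-05). The long-term knockdown libraries were the lowest 3 of the 12.

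ATP6V1D, a subunit of the central rotor, had 145, 123 and 109 CPM without and 97.1, 90.7 and 80.6 with long-term knockdown (−0.49 ± 0.12, adjusted p = 0.00527). ATP6V1G1, a subunit of the peripheral stalks whose promoter is shown above, had 140.4, 137 and 129 against 109, 99.2 and 98.4 CPM (−0.41 ± 0.10, adjusted p = 0.00454). ATP6V1H, a regulatory subunit, had 97.4, 97.7 and 78.4 against 64.4, 72.0 and 71.9 CPM (−0.39 ± 0.10, adjusted p = 0.00776). In none of these 3 did the long-term groups overlap. How many of all genes tested separated in this way was not counted, so overlap only describes these libraries. ATP6V1B2, which forms the catalytic head together with ATP6V1A, had 136, 129 and 108 against 102, 101 and 83.4 CPM (−0.38 ± 0.12, adjusted p = 0.0283), and that call was lost without long-term nontarget replicate 1 (0.106) or replicate 2 (0.0747) or long-term knockdown replicate 3 (0.0976).

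The catalytic partner ATP6V1A was not called, and its fold change had the opposite sign. Its long-term values were 84.4, 72.9 and 70.9 CPM without and 94.4, 89.9 and 81.9 with knockdown (0.22 ± 0.10, adjusted p = 0.121). ATP6V1E1 and ATP6V1F had log2 fold changes of −0.20 and 0.14, which did not pass. The summed level of V1 was 1015, 949 and 858 CPM in long-term nontarget and 780.1, 775 and 695 in long-term knockdown libraries, which were the lowest 3 of all, against 861 to 1047 CPM in the short-term libraries. Short-term, no V1 subunit passed and log2 fold changes ran from −0.23 to 0.21.

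In V0 the subunits diverged. ATP6V0A1, an isoform of the a subunit through which protons enter and leave the pump (chr17:42458844-42522611, plus strand), had 20.1, 14.9 and 19.2 CPM in short-term nontarget, 17.3, 16.2 and 24.8 in short-term knockdown and 21.2, 19.8 and 23.9 in long-term nontarget libraries. It had 9.59, 8.80 and 8.99 CPM in long-term knockdown libraries. These were below all other libraries (−1.24 ± 0.18, the level fell by 57.7%, adjusted p = 4.62e-05), while the short-term fold change was 0.10 ± 0.17 (adjusted p = 0.806). The isoform ATP6V0A2 had 40.2, 41.3 and 39.1 against 33.6, 30.2 and 30.2 CPM long-term (−0.36 ± 0.12, adjusted p = 0.0293), a call lost without long-term nontarget replicate 1 or 2 or long-term knockdown replicate 2 or 3 (0.0534 to 0.0825), when only the long-term groups were fitted (0.0577) and with no filter on low counts (0.0814).

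ATP6V0E1, a small membrane subunit (chr5:172983757-173035445, plus strand), was higher at both times. It had 190.3, 185 and 188 CPM without and 318, 278 and 249 with short-term knockdown (0.58 ± 0.11, adjusted p = 0.00208), and 177, 159.7 and 144 without and 269, 238 and 221 with long-term knockdown (0.60 ± 0.11, adjusted p = 4.56e-04). The groups did not overlap at either time, and the annotation holds 4 pseudogenes of this gene. Its chromosomal neighbors moved by the same amount: the median log2 fold change of the 40 nearest tested genes was 0.60 short-term and 0.56 long-term. ATP6V0B and ATP6V0D1 passed in neither comparison.

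The accessory proteins went in opposite directions long-term. ATP6AP1, which helps assemble V0 (chrX:154428632-154436516, plus strand), had 165, 182 and 213 CPM without and 133, 124 and 144 with knockdown (−0.48 ± 0.11, adjusted p = 0.0038). ATP6AP2, also known as the prorenin receptor (chrX:40579372-40606848, plus strand), had 152, 127 and 141 CPM without and 194, 201 and 192 with knockdown (0.48 ± 0.10, adjusted p = 0.00184). Neither pair of long-term groups overlapped, again without a count over all genes. Over the 15 tested V-ATPase genes 2 were higher long-term, 13.3% against 13.7% of all genes, and 8 were lower, 53.3% against 15.8%, with a median of −0.36.

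**Figure D3:**
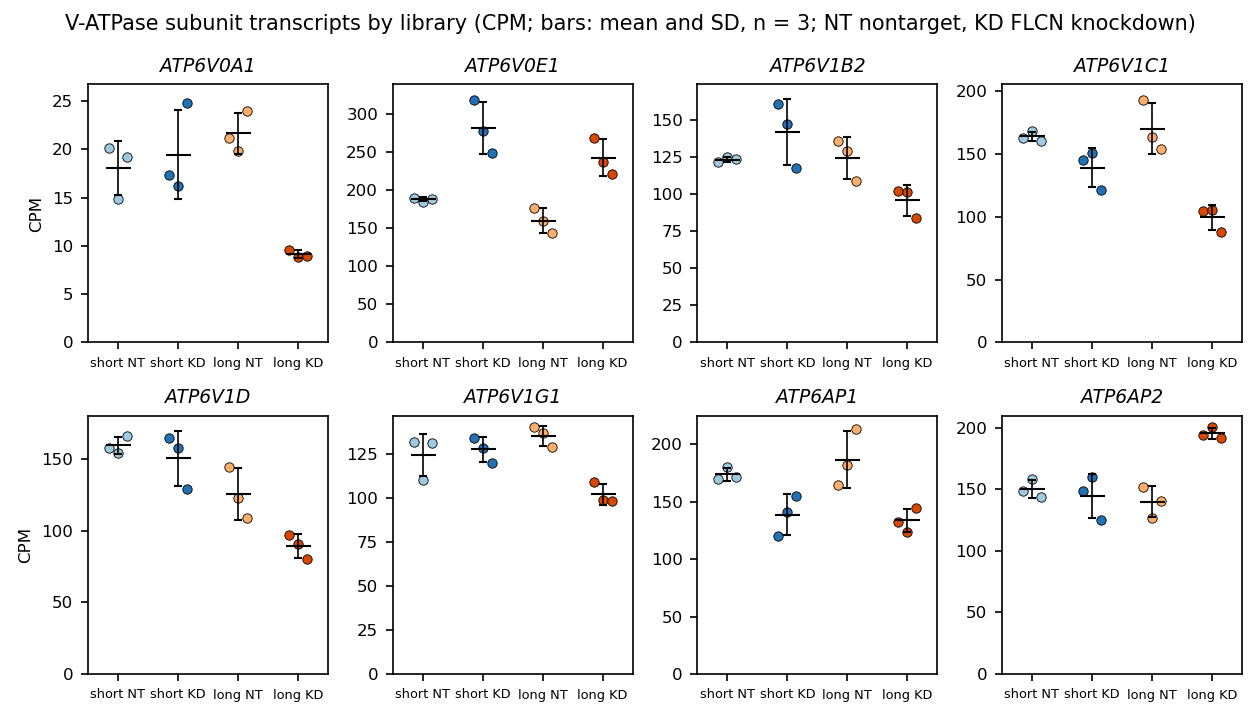
CPM (y axis, from 0) of 8 V-ATPase transcripts in each library of the 4 groups (x axis); points are libraries, bars the mean and SD (n = 3). ATP6V0A1, ATP6V1C1, ATP6V1D and ATP6V1G1 are lowest in long-term knockdown libraries, ATP6V0E1 is higher with knockdown at both times, and ATP6AP2 is highest in long-term knockdown libraries.

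Whether the knockdown effect itself differed between long-term and short-term cells was tested as an interaction, in which all 4 groups enter. It was higher long-term for 4 of the 50 genes, 8% against 4.98% of all genes, and lower for 6, 12% against 8.43%. A difference of at least 2.5-fold was found for 3, 6% against 5.44%. GAA and CTSS had the largest differences, followed by ATP6V0A1 with −1.34 ± 0.25 (adjusted p = 0.00118). These 3 calls and those of GUSB (0.72 ± 0.16, adjusted p = 0.00486) and NEU1 (−0.76 ± 0.15, adjusted p = 0.00253) held in every fit that left out 1 library. The calls of NAGLU and ATP6AP2 on the higher side and of ATP6V1B2, ATP6V1C1 and ATP6V1G1 on the lower side were each lost in 3 to 9 of those 12 fits. NAGLU, which removes N-acetylglucosamine, had 27.3, 26.7 and 29.5 against 20.2, 16.8 and 21.1 CPM short-term and 18.1, 22.8 and 25.2 against 22.4, 22.3 and 34.4 long-term. Its effects, −0.53 ± 0.18 and 0.25 ± 0.17, did not pass on their own, whereas their difference did (0.78 ± 0.25, adjusted p = 0.0459). In short-term cells ATP6V1B2 had 122, 125 and 123 CPM without and 161, 147 and 118 with knockdown. ATP6V1G1 had 132, 111 and 131 CPM without and 134, 129 and 120.2 with knockdown. ATP6AP2 had 149, 159 and 144 CPM without and 149, 160.3 and 125 with knockdown. These short-term groups overlapped for each of the 3. For CTSL, SMPD1, ATP6V1D and ATP6V0E1 a difference between times was not shown (adjusted p = 0.135 to 0.96).

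The tests above share libraries, since the interaction uses all 12 and the comparisons of culture time below use the same nontarget and knockdown libraries as the knockdown comparisons. Their values are given side by side and do not support each other.

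Culture time without knockdown was examined in nontarget cells, long-term against short-term. No member was higher in edgeR or DESeq2, against 3.17% of all genes in edgeR, and 1 was higher at an unadjusted p below 0.05, where 8.89% of all genes were. Lower were 3 members, 6% against 4.38%: CTSL (−1.09 ± 0.14, adjusted p = 6.41e-05), CTSZ (−0.45 ± 0.11, adjusted p = 0.017) and NPC2. CTSZ went from 839, 850.3 and 783 CPM in short-term to 525, 642 and 639 in long-term nontarget libraries, without overlap, although the call was lost without short-term nontarget replicate 1 (0.0733) or replicate 2 (0.0768) or long-term nontarget replicate 1 (0.0784). NPC2, which hands cholesterol to NPC1 in the lysosome, went from 203, 229 and 205 to 139.5, 152 and 144 CPM (−0.55 ± 0.10, adjusted p = 0.0026). It lies on chromosome 14, where the median log2 fold change was −0.35 for its 40 nearest tested genes and −0.34 for the whole chromosome. No V-ATPase gene passed in this comparison in edgeR or DESeq2, and 2 of 15 were lower at an unadjusted p below 0.05, where 10.5% of all genes were. DESeq2 called GUSB and ACP2 lower as well (adjusted p = 0.0387 and 0.0496, against 0.0552 and 0.0543 in edgeR).

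Between long-term and short-term knockdown cells, 4 members were higher, 8% against 11.5% of all genes, and 19 were lower, 38% against 15.2%. The higher ones were GAA (1.40 ± 0.13, adjusted p = 2.91e-07), CTSF (0.87 ± 0.17, adjusted p = 8.00e-04), ATP6AP2 (0.43 ± 0.10, adjusted p = 0.00488) and GUSB (0.35 ± 0.11, adjusted p = 0.0273). CTSF, a cysteine protease, had 21.1, 28.5 and 26.5 CPM in short-term and 36.2, 46.2 and 56.8 in long-term knockdown libraries, which did not overlap. Among the lower ones were 5 proteases, led by CTSS (−1.86 ± 0.19, adjusted p = 1.02e-06) and CTSL (−1.22 ± 0.15, adjusted p = 9.39e-06), and 5 of the 8 V1 subunits. Of these, ATP6V1G1 lost the call in 4 and ATP6V1H in 3 of the 6 fits that left out 1 library, and both lost it with no filter on low counts and with only the groups compared. ATP6V1D had the largest V1 difference, −0.75 ± 0.12 (adjusted p = 1.69e-04). It too lies on chromosome 14, and the median of its 40 nearest tested genes was −0.56 in this comparison and −0.22 in the long-term knockdown comparison. Of 6 membrane proteins tested, LAMP2 and the cholesterol exporter NPC1 were lower; NPC1 (−0.58 ± 0.17, adjusted p = 0.0194) lost the call without short-term knockdown replicate 3 (0.102) or long-term knockdown replicate 2 (0.0586). The LAMP2 call was lost in 4 and the GUSB call in 5 of the 6 fits that left out 1 library, ATP6V0D1 in 4, TPP1 in 3, SMPD1 in 2 and CTSD in 1.

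**Figure D4:**
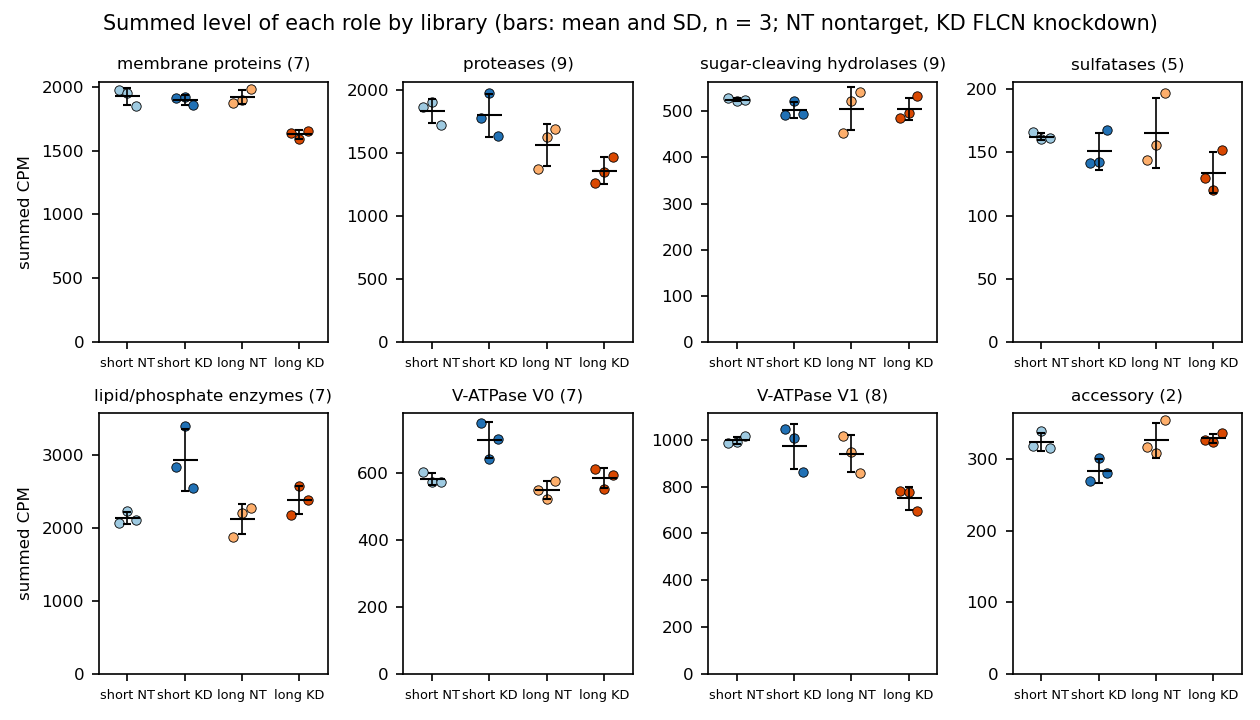
Summed CPM of the members of each role (y axis, from 0; number of members in brackets) in each library of the 4 groups (x axis); points are libraries, bars the mean and SD (n = 3). Membrane proteins and V1 subunits are lowest in the 3 long-term knockdown libraries (1587 to 1653 and 695 to 780.1 CPM), and the lipid and phosphate group has its highest mean in short-term knockdown cells (2553 to 3393 CPM).

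Each member was also set beside the 40 nearest tested genes on its chromosome, to show whether a segment moved with it. ATP6V0E1 matched its neighbors, as given above. In short-term cells PSAP (0.67) and CTSD (0.55) exceeded neighbor medians of 0.26 and 0.25. In long-term cells the neighbor medians were 0.21 for GAA and 0.27 for GUSB, against member values of 1.05 and 0.97, and 0.04 for CTSS, −0.03 for CTSL and −0.02 for SMPD1. For the V1 subunits ATP6V1C1, ATP6V1G1 and ATP6V1H the neighbor medians lay between −0.05 and −0.02, and for ATP6V1B2 the median was −0.23. The part that segmental shifts had in the values of ATP6V0E1, ATP6V1D, ATP6V1B2 and NPC2 was not tested.

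**Figure D5:**
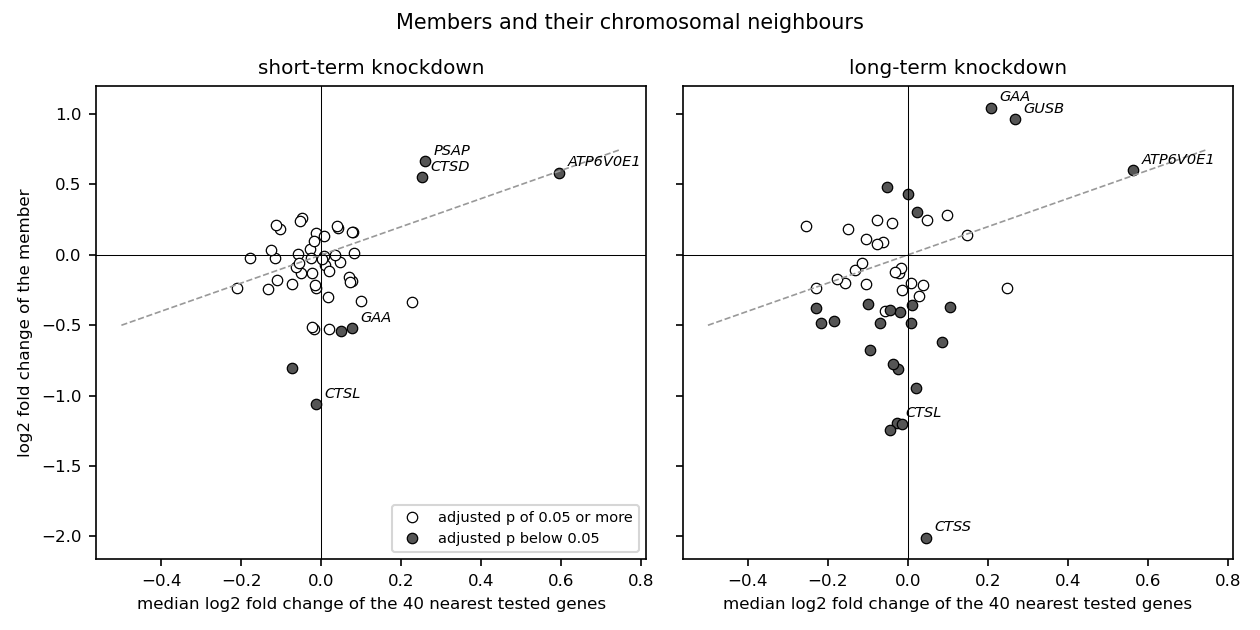
Log2 fold change of each tested member (y axis) against the median log2 fold change of its 40 nearest tested genes (x axis) in short-term (left) and long-term (right) knockdown cells; filled points have an adjusted p below 0.05, and the dashed line marks equal values. ATP6V0E1 lies on the line at about 0.6 in both panels, whereas CTSL lies far below it in both and CTSS in the long-term panel.

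Of the MiT/TFE factors, which read the motif described above, 3 of 4 were tested and TFEC was not. None passed short-term in edgeR or DESeq2, against 5.62% of all genes higher and 4.71% lower in edgeR. None had an unadjusted p below 0.05, where 12.3% of all genes were higher and 10.8% lower. Long-term, 1 of the 3 was lower, 33.3% against 15.8% of all genes, and 0 were higher, against 13.7%. With 3 genes, a difference from the other genes cannot be read from these counts. MITF had 97.3, 79.9 and 85.4 CPM in long-term nontarget and 65.1, 61.0 and 71.9 in long-term knockdown libraries (−0.41 ± 0.11, adjusted p = 0.00803), without overlap. TFE3 had 87.8, 97.3 and 103 against 84.7, 79.2 and 102 CPM (−0.12 ± 0.11, adjusted p = 0.462) and TFEB had 4.02, 4.65 and 8.93 against 6.12, 4.40 and 7.29 CPM (0.00 ± 0.29, adjusted p = 0.999). These are transcript levels, whereas the factors are known to be controlled by phosphorylation and localization, which were not measured here. Of members with a promoter, the extended palindrome was present in 2 of the 4 that were higher long-term, 1 of the 13 that were lower and 4 of the 19 that were not called, against 21.1% of all 38. Short-term it was present in 0 of the 1 that was higher, 1 of the 4 that were lower and 6 of the 31 that were not called. These counts are too few to read a difference from.

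Lysosomal genes outside the list gave 4 higher and 10 lower of 30 tested (33 listed) in long-term cells, which is 13.3% higher against 13.7% of all genes and 33.3% lower against 15.8%. Short-term, 2 were higher and 2 lower, 6.67% each against 5.62% and 4.71%. CTSH, SLC17A5, CTSV and OSTM1 were lower by at least 2-fold long-term. CTSH, an aminopeptidase of the cathepsin family, had 94.5, 106 and 117 CPM without and 37.0, 41.4 and 37.8 with long-term knockdown (−1.45 ± 0.13, adjusted p = 1.62e-07). SLC17A5, the sialic acid exporter, had 36.2, 32.2 and 28.2 against 14.0, 15.1 and 12.2 CPM (−1.22 ± 0.18, adjusted p = 4.97e-05). CTSV had 118, 131 and 115 against 59.6, 60.2 and 52.6 CPM (−1.08 ± 0.13, adjusted p = 4.63e-06), and OSTM1, a partner of the lysosomal chloride transporter, had 49.3, 39.0 and 42.3 against 21.3, 22.6 and 19.2 CPM (−1.05 ± 0.13, adjusted p = 9.60e-06). In none of these 4 did the long-term groups overlap, again without a count over all genes.

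The other V-ATPase isoforms gave 0 higher and 2 lower of 6 tested long-term, 33.3% lower against 15.8% of all genes, and DESeq2 called 1 of them lower. TCIRG1, a further isoform of the a subunit, was not called. It had 32.6, 35.3 and 47.9 CPM without and 40.2, 40.2 and 65.3 with long-term knockdown, which overlapped. ATP6V1C2, an isoform of subunit C that is named here after its values were seen, had 77.7, 69.2 and 68.7 against 55.5, 54.9 and 48.8 CPM long-term (−0.44 ± 0.11, adjusted p = 0.00459). Short-term it had 57.0, 68.3 and 62.8 against 49.9, 47.5 and 45.5 CPM (−0.40 ± 0.11, adjusted p = 0.0249), and the groups overlapped at neither time. It shares 29.9% of its exon bases with AC092687.3 and PDIA6 on the opposite strand. ATP6V0A4, the a subunit isoform of kidney intercalated cells, had 2.55, 4.18 and 3.49 against 1.27, 1.32 and 2.71 CPM long-term, which overlapped (−0.98 ± 0.35, adjusted p = 0.045). The knockdown effect on ATP6V0A4 differed between times by −1.51 ± 0.46 (adjusted p = 0.0385). The same difference was −1.74 ± 0.17 for CTSH (adjusted p = 2.49e-06), −1.41 ± 0.18 for CTSV (2.58e-05) and −1.47 ± 0.22 for the acid phosphatase ACP5 (1.41e-04). ACP5 had 25.8, 22.6 and 21.7 against 30.4, 37.6 and 33.6 CPM short-term and 22.0, 22.6 and 24.7 against 9.36, 13.8 and 13.4 long-term. It is also a marker of macrophages and osteoclasts, and the other 6 markers of that list stayed at or below 1.03 CPM in every group mean. Of the 7 genes for sorting to the lysosome, none passed in either knockdown comparison in edgeR or DESeq2, against adjusted shares over all genes of 5.62% higher and 4.71% lower short-term and 13.7% and 15.8% long-term. At an unadjusted p below 0.05, 2 were lower short-term, where 10.8% of all genes were, and 0 long-term, where 20.5% were. With 7 genes, a difference from the other genes cannot be read from these counts.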

How the data were processed

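The authors prepared libraries with the TruSeq RNA v2 kit, sequenced it on a MiSeq, trimmed reads with fastp, mapped them with STAR, counted them per gene with featureCounts and tested them with DESeq2, on GRCh38 per the submitters' processing notes. Versions, annotation release and strand setting were not given in the sources used here. The deposited raw count table was used, and 0 of its values differed from the per-library files. The deposited normalized values (unit score, as rounded counts times 1 factor per library) served only to check the table, and 100% lay within 1 of that product.

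The 58288 IDs, 26652 of them with a count, were matched to GENCODE release 29: 55661 with the same version, 2364 with another and 263 not at all (0.0126% of counts). Coordinates are printed for genes matched with the same version, which 49 of the 54 members were. Exon overlaps and pseudogenes come from the same annotation.

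In R 4.3.3, edgeR 4.0.16 kept 13959 genes by filterByExpr (99.8% of counts), scaled them by TMM, and fitted 1 term for each of the 4 groups over 12 libraries by robust quasi-likelihood, with a prior count of 0.125. P-values are two-sided with Benjamini-Hochberg adjustment over all genes tested, and a gene was called at an adjusted p below 0.05. An SE is the log2 fold change divided by the square root of F. CPM use TMM-scaled totals. The biological coefficient of variation was 12.0%, and replicates differed by a chi-square per degree of freedom of 2.13 to 12.6, more than counting error. In each group, both pairs with replicate 3 differed more than replicates 1 and 2. Pairs with replicate 3 gave 4.22 to 12.6, and replicates 1 and 2 gave 2.13 to 5.15.

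The members and all lists were chosen with earlier results of these data known. Named with values in every library were up to 15 members called per knockdown comparison or interaction, largest change first (further called members were added so that each is accounted for), and up to 5 other listed genes per comparison called with at least a 2-fold change. DESeq2 1.42.0, RLE factors, other filters, the replicate number as a block, a fit of only the groups compared and leaving out each library were tried.

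Replicate numbers come from the labels. Deviations from group means correlated between same-numbered libraries by 0.284, 0.123 and 0.458 in the long-term knockdown comparison and by 0.223, 0.292 and 0.455 between long-term and short-term knockdown cells, so the numbers pair the libraries there. The reported fold changes, SEs, p-values and leave-one-out results all come from fits without a block, which make no use of that pairing. The blocked counts stand in the closing section. RefSeq promoters (GRCh38.p14) were reduced to 1 per symbol. Figures were drawn with matplotlib 3.10.9.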

Additional observations from a re-analysis of the deposited data

Results flagged for a closer look

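The knockdown effect differed between long-term and short-term cells for 10 members, by an interaction term in edgeR (adjusted p below 0.05), which marked them for a closer look. The log2 difference of the effects, long-term minus short-term, was positive for GAA (1.57, adjusted p = 1.05e-05), NAGLU (0.78, 0.0459), GUSB (0.72, 0.00486) and ATP6AP2 (0.54, 0.0208). It was negative for CTSS (−1.998, adjusted p = 2.65e-05), ATP6V0A1 (−1.34, 0.00118), NEU1 (−0.76, 0.00253), ATP6V1B2 (−0.58, 0.0335), ATP6V1C1 (−0.54, 0.0313) and ATP6V1G1 (−0.44, 0.0434). Only GAA was called in opposite directions at the 2 times. For CTSS, GUSB, NEU1, ATP6V0A1, ATP6V1B2, ATP6V1C1, ATP6V1G1 and ATP6AP2 the call was long-term alone, and NAGLU was called at neither time.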

How the results depend on the processing

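Of 68 member calls in the 5 comparisons, 43 held in every alternative fit and none reversed in any. Of 866 combinations of a call and an alternative fit, 756 kept the call and 110 lost it. Combinations from the same fit are not separate trials. Of the losses, 95 came on leaving out 1 library, 9 with only the groups compared, 5 with no filter on low counts and 1 at a mean of at least 10 CPM. RLE factors, DESeq2 and the replicate block lost 0 of these calls. With a 2.5-fold limit, members called went from 7 to 0 short-term, from 25 to 1 long-term and from 10 to 3 in the interaction. Short-term lower calls went from 4 to 7 with no filter on low counts, and lower calls between nontarget groups from 3 to 5 with DESeq2 and 7 with only the groups compared. With the replicate block, short-term lower calls rose to 10, interaction lower calls from 6 to 11, and nontarget calls to 1 higher and 8 lower. Over all genes the block moved calls from 1441 to 2359 short-term, from 1872 to 2879 in the interaction and from 1054 to 1786 between nontarget groups. The short-term and nontarget libraries were not read as paired, with same-number correlations of 0.0172 to 0.111 and −0.034 to 0.0767. Where libraries were paired, the block kept every member call. It gave 7 higher and 20 lower long-term, where calls over all genes went from 4119 to 5137. Between long-term and short-term knockdown cells it gave 6 higher and 23 lower, where calls over all genes went from 3719 to 4805.

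Leaving out 1 library gave 2 to 5 short-term lower calls (2 without replicate 1 of either short-term group), 2 to 4 interaction higher calls (2 without replicate 2 of either nontarget group), 3 to 7 interaction lower calls (3 without any 1 of the short-term nontarget libraries, short-term knockdown replicate 1 or long-term nontarget replicate 1), and, between nontarget groups, 0 to 1 higher (1 without long-term nontarget replicate 1) and 2 to 4 lower. The causes were not tested. Low counts limit TFEB and ATP6V0A4, at most 8.93 and 6.58 CPM in any library.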
